A study of Mus musculus with 6 samples.

Results

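The rostral forebrain of wild-type mouse embryos was compared between embryonic days E10.5 and E12.5 with 1 Affymetrix expression array at each age. These are 2 of the 6 arrays of the series. The other arrays hold wild-type forebrain at E9.5 and forebrain of Fezf1-/- Fezf2-/- embryos at those ages and at E9.5; these embryos lack both zinc finger genes. All groups were dissected manually and hold the brain tissue rostral to where the lateral ventricles end caudally. The wild-type embryos carried no allele or treatment that the labels name. The number of embryos per array is not given in the sources used here. Of the 18194 genes with a probe set of a single symbol, the 7843 with a normalized signal over 100 in either wild-type array are described here. A gene is called higher or lower at E12.5 when the difference in log2(signal + 6.50) reached 2-fold. With 1 array a side that call is a description and has no replicate check, and log2 differences understate the change of dim genes.

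Between these ages the neuroepithelium that lines the forebrain ventricles turns into radial glia, progenitors that keep their contact with both surfaces and give rise to neurons directly or through intermediate progenitors. Proneural transcription factors commit daughter cells to a neuronal fate, Notch signalling between neighbours keeps other cells as progenitors, and the new neurons leave the cycle, move outward and build axons and synapses. The pallium (the dorsal part) makes glutamatergic neurons, and the subpallium (the ventral part) makes GABAergic neurons.

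At E12.5, 613 of the 7843 genes were at least 2-fold higher than at E10.5 (7.82%) and 563 were at least 2-fold lower (7.18%). The median difference over all 7843 genes was -0.09 on the log2 scale, and the middle 95% of genes lay between -1.57 and 1.91. At least 8-fold differences were found for 42 higher and 31 lower genes. Of the 613 higher genes, 335 were over the signal minimum at E12.5 only, and of the 563 lower genes, 353 were over it at E10.5 only. The split between higher and lower genes depended on the scaling between arrays: 52.1% of the called genes were higher after quantile normalization, 62.5% after scaling to a common trimmed mean and 97.8% in the values as deposited. In those unscaled values the median over all genes was 0.87, so every change below is relative to the level that the arrays share after normalization.

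**Figure D1:**
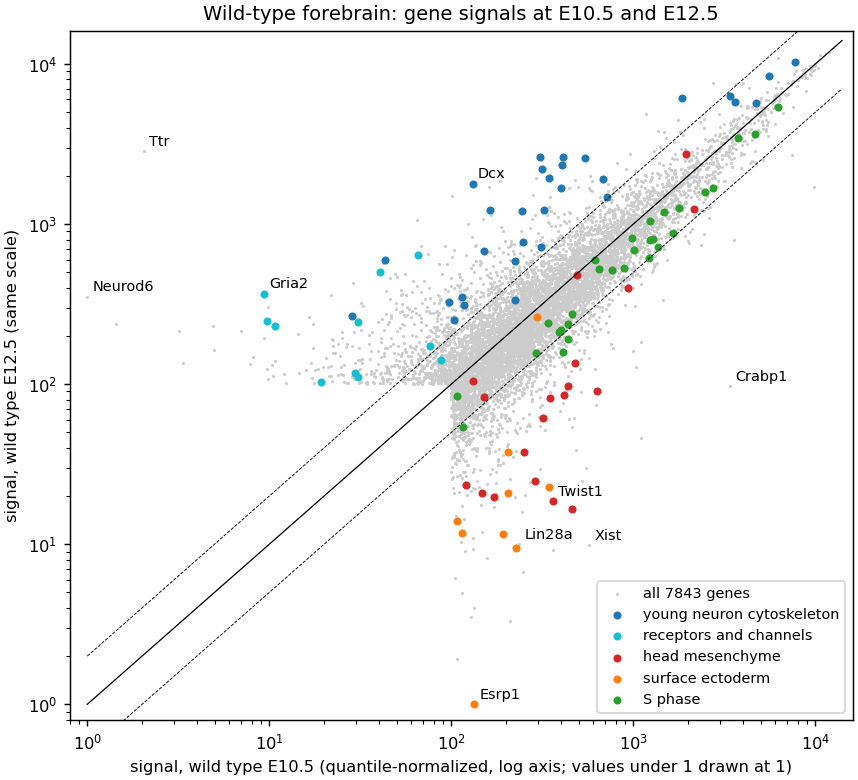
Quantile-normalized signal of each of the 7843 genes in the wild-type arrays of E10.5 (horizontal) and E12.5 (vertical), both on log axes, with the line of equality and dashed lines at 2-fold. Of the young neuron genes 24 of 30 lie on or above the upper dashed line. So do 10 of 11 receptor and channel genes, but none of these 11 was over the minimum in both arrays. Their place was therefore shaped by the signal minimum. Head mesenchyme and surface ectoderm genes lie mostly below the lower dashed line, and S phase genes just under the line of equality.

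A test was possible only across genotypes. A limma model with age and genotype as additive terms was fitted to all 6 arrays, with Benjamini-Hochberg adjustment over the 8468 genes with signal over 100 in any array. It called 2077 genes higher at E12.5 than at E10.5 (24.5%) and 2883 lower (34%) at an adjusted p under 0.05, and every adjusted p below comes from this fit. Of the called genes, 41.9% were higher after quantile normalization and 95.7% in the values as deposited. The fit describes the mean of wild type and knockout and not wild type alone, and its p-values measure only the spread between these arrays, which may be technical. The wild-type arrays are part of it, so that 609 of the 613 higher and 560 of the 563 lower genes passed it in the same direction is not independent evidence. Single-gene calls were also compared with a second probe set of the same gene where it was over the signal minimum. It went the other way for 7 of 201 higher genes and 6 of 166 lower genes.

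The arrays stood apart in ways that the age does not define. Median deposited signal was 14.2 at E10.5 and 33.7 at E12.5 in wild type, and ranged from 14.2 to 37.1 over the 6 arrays. Xist, the RNA that coats the inactive X chromosome of female cells, had a signal of 573 at E10.5 and 9.87 at E12.5 in wild type. The Y-linked genes Eif2s3y (177 and 296), Uty (68.4 and 104) and Kdm5d (102 and 151) had signal at both ages. The sex of the embryos and their age cannot be told apart for such genes. The tissue carried forebrain markers at both ages: the signal of Lhx2 was 766 and 1217, that of Emx2 395 and 556, that of Otx2 416 and 307, and that of Six3 211 and 151. None of the 22 Hox genes on the array, which mark hindbrain and spinal cord, was over the minimum.

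In the lists below, a gene that passed the signal minimum in the array of 1 age alone did so where it was high. The counts and medians over members that passed therefore describe those members and are no test of a list.

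Genes of the young neuron's cytoskeleton were higher as a group. All 30 genes of this list were over the signal minimum, 24 were at least 2-fold higher at E12.5 and none was 2-fold lower, with a median difference of 1.71 against -0.09 for all genes. All 30 passed the age fit in the higher direction. Dcx, which encodes the microtubule-binding protein doublecortin of migrating neurons, had a signal of 131 at E10.5 and 1787 at E12.5 (log2 difference 3.70, adjusted p = 4.12e-06). Mapt, the gene of the axonal protein tau, went from 43.1 to 593, and Map2, its dendritic relative, from 306 to 2631. The neuronal tubulin gene Tubb3 had signals of 542 and 2596, and the microtubule-destabilizing stathmin Stmn2 had 343 and 1937. The neurofilament-type gene Ina was at 163 and 1221, and the growth cone gene Gap43 at 247 and 774. Genes that were already bright at E10.5 differed less: Stmn1 had signals of 5557 and 8363 and Tuba1a of 7687 and 10221. In bulk tissue, more cells of a type and more RNA per cell cannot be told apart.

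Synaptic genes were higher in most cases. Of 29 synaptic vesicle and secretory granule genes on the array, 17 were over the minimum, 8 of them in both arrays. Of the 17, 13 were 2-fold higher and none 2-fold lower (median 1.75), and 16 passed the age fit as higher. Nsg2, which encodes an endosomal protein of neurons, had signals of 101 and 1488 (3.79, adjusted p = 4.61e-06). The vesicle GTPase gene Rab3c went from 1.43 to 239, and Snap25, whose product is part of the membrane fusion machinery, from 14.3 to 205. The presynaptic syntaxin gene Stx1a was at 110 and 139 and did not pass the fit (adjusted p = 0.253). Syp, encoding synaptophysin, had signals of 40.4 and 102, but its difference was -0.02 when all its probe sets were averaged.

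Of 35 receptor and channel genes on the array only 11 were over the minimum, and none of them was over it in both arrays. Each of them passed only through the array in which it was high. The count of 10 that were 2-fold higher was therefore shaped by this choice and is no test of the list. The AMPA receptor subunit gene Gria2 had signals of 9.33 and 367 (4.56, adjusted p = 9.23e-06). The sodium channel subunit gene Scn3b was at 9.71 and 247, and Cacna2d1, a calcium channel subunit, at 40.6 and 503. Cnr1, the cannabinoid receptor of growing axons, went from 65.5 to 638. The 24 members under the minimum at both ages included the NMDA receptor subunit gene Grin2b and the sodium channel genes Scn2a and Scn8a.

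Adhesion and axon guidance genes were divided. Of 32 over the minimum, 12 were 2-fold higher and 1 was 2-fold lower (median 0.88), and the age fit called 24 higher and 6 lower. Epha5, an ephrin receptor, had signals of 9.84 and 304, and the adhesion gene Chl1 of 14.8 and 396. Dcc, the netrin receptor of commissural axons, was at 166 and 1145 (2.74, adjusted p = 1.07e-06), and the neural adhesion gene Ncam1 at 136 and 744. Cdh11, a cadherin of mesenchyme and some neural regions, was the member 2-fold lower, at 1317 and 557.

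RNA-binding proteins that set neuronal splicing and transcript stability followed the same direction in most cases. Of 25 over the minimum, 12 were 2-fold higher and 1 was lower (median 0.82), and 18 passed the age fit as higher and 5 as lower. Celf5 had signals of 64.6 and 1060 (3.91, adjusted p = 7.83e-07), and its relative Celf4 of 46 and 461. The neuronal Hu genes Elavl2, Elavl3 and Elavl4 were at 442 and 1687, 144 and 555, and 187 and 961. Srrm4, an activator of neuronal microexons, went from 31.1 to 169. The members that the age fit called lower included Ptbp1 (1442 and 1022, adjusted p = 0.000283), the repressor of neuronal exons, while its neural relative Ptbp2 was at 2459 and 3420 (adjusted p = 0.000127). The epithelial splicing factor Esrp1 was at 134 and 0.65.

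**Figure D2:**
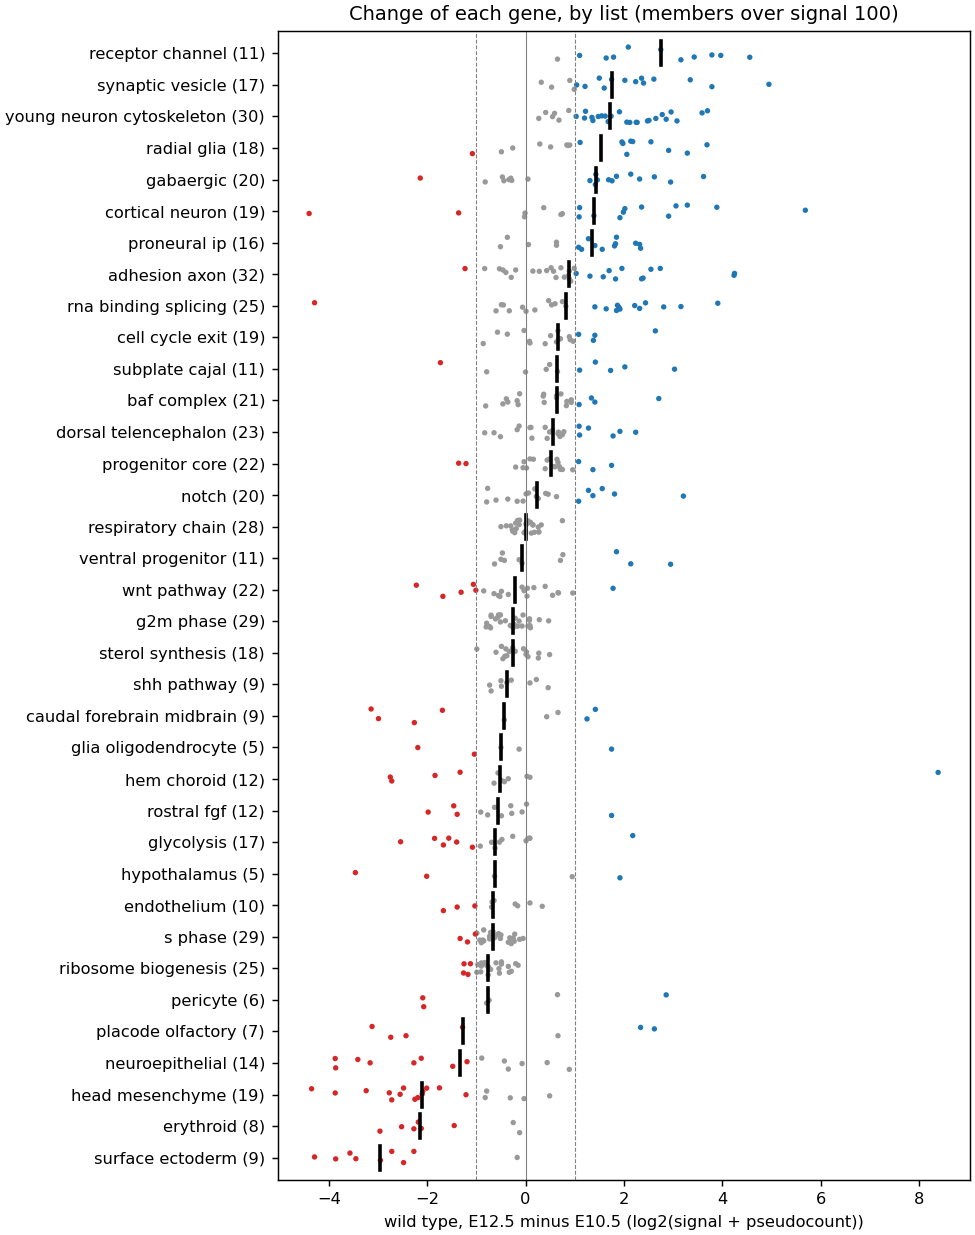
Difference between E12.5 and E10.5 in wild type, in log2(signal + pseudocount), for each list member over the signal minimum, with the number of members in parentheses and the median as a black bar. Blue and red points are at least 2-fold higher and lower. The medians run from 2.75 for receptors and channels to -2.95 for surface ectoderm. Of the 11 and 9 members of these lists, none and 1 were over the minimum in both arrays. Both medians were therefore shaped by the signal minimum.

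The subunits of the BAF chromatin remodelling complex include pairs that are exchanged when progenitors become neurons. Of 21 over the minimum, 4 were 2-fold higher and none lower (median 0.63). The neuronal subunit gene Actl6b had signals of 12 and 115 (2.71, adjusted p = 0.000558), whereas its progenitor counterpart Actl6a had 972 and 864 (adjusted p = 0.0265). Ss18l1, the neuronal counterpart of Ss18, went from 73.4 to 196, and Ss18 from 868 to 674. Dpf1 was at 88.9 and 151, and the progenitor member Phf10 at 801 and 581.

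Proneural and intermediate progenitor genes were mostly higher. Of 16 over the minimum, 11 were 2-fold higher and none was lower (median 1.35), and 14 passed the age fit as higher. Neurog2, the main proneural factor of the dorsal pallium, had signals of 247 and 1191 (2.24, adjusted p = 1.8e-05). Neurod1, which acts after it, was at 121 and 637, and Eomes, the marker of intermediate progenitors, at 186 and 418. Neurog1, the close relative of Neurog2, was at 182 and 126 and did not pass the fit (adjusted p = 0.89). Insm1, a zinc finger gene of basal progenitors, went from 269 to 577, and the antiproliferative gene Btg2 from 95.2 to 264.

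Among genes of cortical projection neurons, 12 of 19 over the minimum were 2-fold higher and 2 were lower (median 1.39). Neurod6 had a signal of 0.446 at E10.5 and 351 at E12.5 (5.69, adjusted p = 6.64e-05), and Neurod2 of 4.98 and 164. Both encode basic helix-loop-helix factors of postmitotic pyramidal neurons. The early-born neuron gene Tbr1 was at 63.7 and 278, the subcerebral projection gene Bcl11b at 163 and 666, and the vesicular glutamate transporter gene Slc17a6 at 50.3 and 467. Fezf2 itself was at 146 and 249 in wild type and at 0.904 and 1.66 in the knockout. The 2 lower members were Crym (1103 and 46.2), a thyroid hormone binding protein, and Id2 (1528 and 592), an inhibitor of helix-loop-helix factors.

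The 250 bases before the annotated start of 4 of these genes are shown because each holds a hexamer of the E-box type that proneural and NeuroD factors prefer, in capitals (CAGATG or CAGCTG, read on either strand). They come from RefSeq on build GRCm38.p6 and are written 5′ to 3′ on the gene's strand. The positions are chr11:98329646-98329895 on the minus strand for Neurod2, chr11:32000169-32000418 on the plus strand for Nsg2, chr10:81482135-81482384 on the minus strand for Celf5 and chr7:51624387-51624636 on the plus strand for Slc17a6.
Neurod2: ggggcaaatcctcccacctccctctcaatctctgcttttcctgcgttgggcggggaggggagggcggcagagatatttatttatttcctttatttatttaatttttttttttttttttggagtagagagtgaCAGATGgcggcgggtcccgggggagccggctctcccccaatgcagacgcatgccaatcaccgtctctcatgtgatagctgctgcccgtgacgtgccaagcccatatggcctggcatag
Nsg2: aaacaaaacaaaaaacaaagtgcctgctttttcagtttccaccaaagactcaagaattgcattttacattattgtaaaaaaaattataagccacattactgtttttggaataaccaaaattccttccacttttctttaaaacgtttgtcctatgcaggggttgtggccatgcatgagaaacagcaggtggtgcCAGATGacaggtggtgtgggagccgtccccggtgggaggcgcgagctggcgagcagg
Celf5: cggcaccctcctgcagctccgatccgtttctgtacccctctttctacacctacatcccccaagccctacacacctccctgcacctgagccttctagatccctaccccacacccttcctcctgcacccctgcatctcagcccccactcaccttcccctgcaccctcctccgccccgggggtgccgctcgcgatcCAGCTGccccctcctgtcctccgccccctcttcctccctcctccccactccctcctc
Slc17a6: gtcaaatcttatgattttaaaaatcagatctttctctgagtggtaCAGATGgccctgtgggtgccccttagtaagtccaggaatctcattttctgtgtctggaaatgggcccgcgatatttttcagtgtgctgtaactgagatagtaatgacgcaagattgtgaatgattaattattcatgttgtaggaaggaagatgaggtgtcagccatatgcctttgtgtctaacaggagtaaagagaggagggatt
The first capital lies at -118 from the start in Neurod2, at -57 in Nsg2, at -57 in Celf5 and at -205 in Slc17a6. The letters were counted over promoters of the genes with the largest differences. Among the 50 genes that rose most, 38 were matched to 67 promoters, of which 13.4% held CAGATG and 11.9% CAGCTG. Among the 50 that fell most, 35 were matched to 46 promoters, with 17.4% and 8.7%. Over all 32851 promoters in the table the shares were 14.4% and 13%, and over the 8293 promoters of genes over the signal minimum they were 9.18% and 10.9%. The shares for CAGATG in both sets lay above that of the expressed genes and on either side of that of all promoters, and the counts behind them are small (9 of 67 and 8 of 46). A match is a description of the letters and not a binding site.

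Among GABAergic genes of the subpallium, 12 of 20 over the minimum were 2-fold higher and 1 was lower (median 1.42). The age fit called 14 of 22 higher and 6 lower. Gad1, which encodes the enzyme that makes GABA, had signals of 28.7 and 427 (3.62, adjusted p = 2.39e-06), and Gad2 of 46.5 and 258. The ventral homeobox genes Dlx1 and Dlx2 were at 124 and 1005 and at 171 and 632. Lhx6, a factor of interneurons from the medial ganglionic eminence, went from 35.5 to 179. Rarb, a retinoic acid receptor gene of the striatal anlage, was at 203 and 41.1. Among ventral progenitor genes, Olig2 was at 169 and 154 and Shh at 388 and 273, and neither passed the fit (adjusted p = 0.286 and 0.585).

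Cajal-Retzius and subplate genes were led by Reln, the gene of the layering signal reelin, at 74 and 650 (3.03, adjusted p = 5.75e-06). Of 11 over the minimum, 5 were 2-fold higher and 1 was lower (median 0.65). Calb2, a calcium-binding protein of these cells, was at 51.3 and 118, and Lhx1 at 33.8 and 101. Nr4a2 was at 79.1 and 277, but its difference was -0.11 when all its probe sets were averaged.

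Radial glia genes were higher in part. Of 18 over the minimum, 11 of them in both arrays, 10 were 2-fold higher and 1 was lower (median 1.53). The nuclear factor I genes Nfia, Nfib and Nfix, which act in the switch to later progenitor states, had signals of 91.8 and 732, 68.5 and 726, and 21.8 and 358. Fabp7, a fatty acid binding protein of radial glia, was at 1166 and 4882 (2.06, adjusted p = 1.59e-05). The glutamate transporter gene Slc1a3 was at 53.8 and 123, and the receptor phosphatase gene Ptprz1 at 288 and 1140. Of the 22 general progenitor genes, all over the minimum in both arrays, 3 were 2-fold higher and 2 were lower (median 0.52), and 14 passed the age fit as higher. Sox2, which keeps neural progenitors, was at 2006 and 2647, Pax6 at 398 and 543, and Nes at 316 and 495. Rest, the repressor of neuronal genes outside neurons, was lower at 281 and 117. It was 0.95 higher in the values as deposited, where the brightest probe set was chosen anew. Whether the scaling or another probe set made this difference was not tested.

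Notch pathway genes differed in their change within each role. Of 20 over the minimum, 6 were 2-fold higher and none was lower (median 0.24). The ligand genes Dll1 and Dll3 had signals of 210 and 517 and of 62.6 and 236, and the neuronal ligand gene Dner of 65.4 and 658. The ligand gene Jag1 was at 296 and 193. Among receptors, Notch1 was at 391 and 834 (adjusted p = 4.45e-05), Notch2 at 361 and 320 and Notch3 at 456 and 260. Among targets, Hes1 was at 127 and 122 (adjusted p = 0.907). Hes5 was at 371 and 968 in wild type and at 848 and 840 in the knockout, and it did not pass the fit (adjusted p = 0.0964).

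Genes of the early neuroepithelium were mostly lower. Of 14 over the minimum, 8 were 2-fold lower and none was 2-fold higher (median -1.34), and of the 15 in the age fit 12 passed as lower and 2 as higher. Those 2 were Pou3f1 (97.9 and 187), a POU factor, and Sox3 (308 and 421), a relative of Sox2. Lin28a, which blocks let-7 maturation, had signals of 235 and 10 (-3.87, adjusted p = 3.12e-06) and stood at 1788 at E9.5. Hmga2, a chromatin protein of young stem cells, was at 2439 and 867, and Igf2bp1 at 1084 and 472. The embryonic DNA methyltransferase gene Dnmt3b was at 424 and 92.4, and the pluripotency-related factor Sall4 at 269 and 24.3. Cdh1 (226 and 9.51) and Epcam (206 and 37.5) are also members of the surface ectoderm list, of which 8 of 9 genes over the minimum were lower, and the part of that tissue in their difference was not tested.

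**Figure D3:**
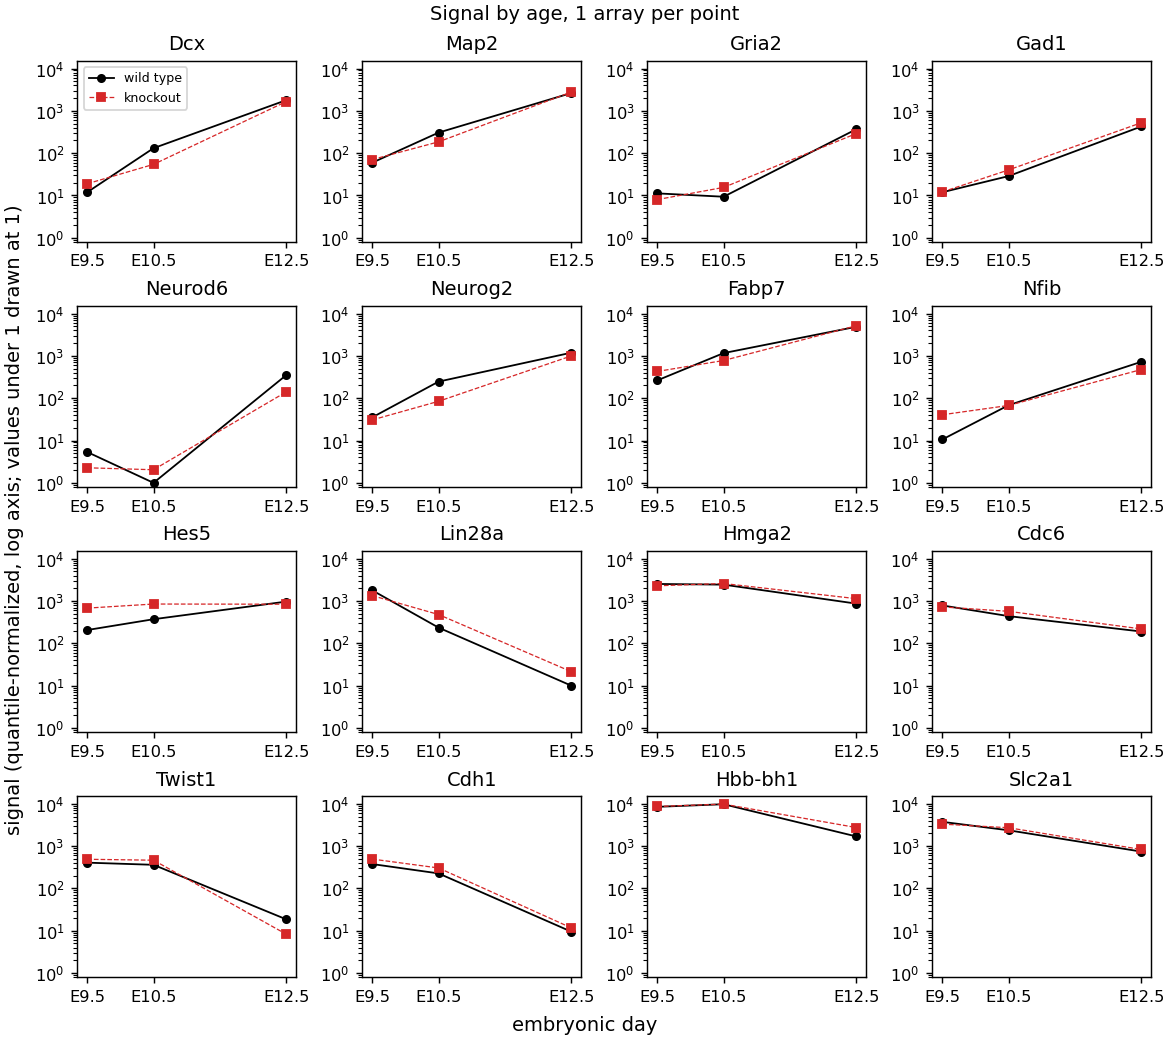
Quantile-normalized signal (log axis, values under 1 drawn at 1) of 16 genes by embryonic day, from E9.5 to E12.5 with 1 array per point, in wild type (black circles) and the knockout (red squares). Dcx went from 131 to 1787 and Gria2 from 9.33 to 367 between E10.5 and E12.5 in wild type, while Lin28a went from 235 to 10 and Twist1 from 361 to 18.6.

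Replication genes were lower by unequal sizes (log2 differences from -1.33 to -0.05), and mitosis genes less so. Of 29 S phase genes over the minimum, 3 were 2-fold lower and none higher (median -0.66), and 26 passed the age fit as lower and none as higher. Ccne1, the cyclin of S phase entry, had signals of 411 and 159 (-1.33, adjusted p = 5.68e-05), and the origin licensing gene Cdc6 of 439 and 190. The helicase subunit genes Mcm4 and Mcm5 were at 1369 and 715 and at 2753 and 1680, and the clamp gene Pcna at 6225 and 5354. None of the 29 genes of G2 and M phase was 2-fold apart (median -0.25), and the fit called 16 lower and 2 higher. Mki67, present in all cycling cells, was at 1530 and 1579 (adjusted p = 0.354), and the spindle gene Aspm at 431 and 598. In the unscaled values the S phase gene Orc1 (116 and 53.7 after normalization) was 0.11 higher.

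Cell cycle exit genes had a median of 0.66, with 4 of 19 2-fold higher and none lower. Cdk5r1, the activator of the neuronal kinase Cdk5, was at 85.4 and 565 (2.64, adjusted p = 1.03e-06), and the retinoblastoma gene Rb1 at 216 and 463. The cyclin-dependent kinase inhibitor genes differed among themselves. Cdkn1b was at 275 and 522 (adjusted p = 0.000274), Cdkn1c at 1197 and 926 (adjusted p = 0.224) and Cdkn1a at 105 and 68.5 (adjusted p = 0.541).

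Genes of ribosome production were lower, with 4 of 25 at least 2-fold lower, none higher, a median of -0.76, and 22 passing the age fit as lower. Ncl, the nucleolar protein nucleolin, had signals of 4365 and 2422 (-0.85, adjusted p = 6.28e-06), and the polymerase I subunit gene Polr1b of 181 and 72.1. Glycolysis and glucose uptake genes were lower in part, with 6 of 17 lower and 1 higher (median -0.62). The glucose transporter genes Slc2a1 and Slc2a3 were at 2362 and 741 and at 1099 and 184, the hexokinase gene Hk2 at 606 and 201, and Pdk1, which holds back pyruvate oxidation, at 453 and 121. Gapdh was at 7559 and 7832 (adjusted p = 0.494). The exception was Aldoc, an aldolase of radial glia and astrocytes, at 55 and 271. None of 28 respiratory chain genes (median 0.01) and none of 18 sterol synthesis genes (median -0.26) was 2-fold apart.

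Among patterning signals, genes of the fibroblast growth factor list were lower in part. Of 12 genes over the minimum, 3 were 2-fold lower, 1 was higher and 8 were under 2-fold apart (median -0.56). The age fit called 8 of the 12 lower and 1 higher. The feedback inhibitor genes Il17rd, Dusp6 and Spry2 had signals of 511 and 125, 553 and 198, and 245 and 89.4, and Fgfr3 of 211 and 726. No gene of the Sonic hedgehog list was 2-fold apart (9 over the minimum, median -0.38). Of 22 Wnt pathway genes, 5 were lower and 1 was higher. Their median of -0.21 lay -0.12 from that of all genes and changed side when probe sets were averaged. The ligand gene Wnt5a was at 191 and 35.9, Wnt7a at 44.2 and 168, and the target gene Axin2 at 158 and 155.

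Of 12 cortical hem and choroid plexus genes over the minimum, 4 were 2-fold lower and 1 was higher (median -0.53). The age fit called 11 of 15 lower and 1 higher. The higher gene, Ttr, had the largest rise among the named genes. Ttr, the transthyretin gene of choroid plexus epithelium, had a signal of 2.05 at E10.5 and 2855 at E12.5 (8.39, adjusted p = 6.76e-05), against 6.59 and 278 in the knockout. Of the 28 genes of the hem and choroid plexus list on the array, 16 were under the minimum at both ages. Kcne2, Folr1 and Cldn2, other markers of that epithelium, were among them, so their change is not described here. The dorsal midline genes Msx1 (631 and 90.6), Msx2 (210 and 25.5) and Bmp4 (119 and 28.4) were lower. The part of tissues around the brain in these lower values, and in those of Pax3 and Pax7 below, was not tested. Genes of caudal forebrain and midbrain were lower for Pax3 (105 and 6.18), Pax7 (132 and 10.9) and Irx3 (619 and 124) and higher for Meis2 (424 and 1017). The median of those 9 genes turned from below to above that of all genes in the values as deposited and under trimmed-mean scaling.

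Most markers of tissues around the brain moved with the lower genes. Of 63 genes over the minimum on the lists for mesenchyme, ectoderm, placode, eye, vessels, blood and macrophages, 37 were 2-fold lower and 3 were higher, and 9 of the 31 genes at least 8-fold lower were among them. Head mesenchyme genes were lower for 14 of 19 and higher for none (median -2.10), and their summed signal was 10470 at E10.5 and 6008 at E12.5. Twist1 had signals of 361 and 18.6, Alx1 of 462 and 16.5 and Prrx2 of 289 and 24.8, all factors of cranial mesenchyme. Of these 19, 6 were over the minimum in both arrays. Surface ectoderm genes were lower for 8 of 9, of which only 1 was over the minimum in both arrays (median -2.95, summed signal 2210 and 507), such as the keratin genes Krt8 (206 and 21) and Krt18 (342 and 22.8). Erythroid genes were lower for 6 of 8 (summed signal 30385 and 15114), with the primitive globin gene Hbb-bh1 at 9761 and 1692 and the other embryonic globin gene Hbb-y at 10280 and 9487. Endothelial genes were lower for 3 of 10 (summed signal 4317 and 2059). Of these 3, Plvap (193 and 91.4) was 0.05 higher in the unscaled values and Slc2a1 is also a glycolysis gene. Placode genes were divided, with 4 of 7 lower and 2 higher, and their summed signal was higher at E12.5 (2288 and 3031). Macrophage genes were near the floor, with 1 of 19 over the minimum. How far a smaller share of these tissues in the E12.5 dissection entered the lower genes was not tested.

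The knockout arrays of the same ages share no array with the wild-type pair and give the nearest repeat of the comparison. They were normalized together with it, and their median deposited signal was also higher at E12.5 (16 and 37.1). Age and an array difference shared by both genotypes cannot be told apart here. Over all 7843 genes the median knockout change was -0.06. The shares of these genes higher, lower or 2-fold apart in the knockout were not counted. The counts that follow therefore have no background share to be read against. Of the 613 genes higher in wild type, 611 were higher at E12.5 in the knockout and 530 by at least 2-fold. Of the 563 lower genes, 560 were lower there and 433 by at least 2-fold, and no gene was 2-fold apart in the opposite direction. Across the 7843 genes the changes in the genotypes had a Pearson r of 0.926, a description across genes, which are not independent replicates. Some sizes differed, and those differences have no test. Pax7 was at 132 and 10.9 in wild type and at 180 and 116 in the knockout, and Aldoc at 55 and 271 against 66.4 and 95.3. Tbr1, at 63.7 and 278 in wild type, was at 3.99 and 182 in the knockout.

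**Figure D4:**
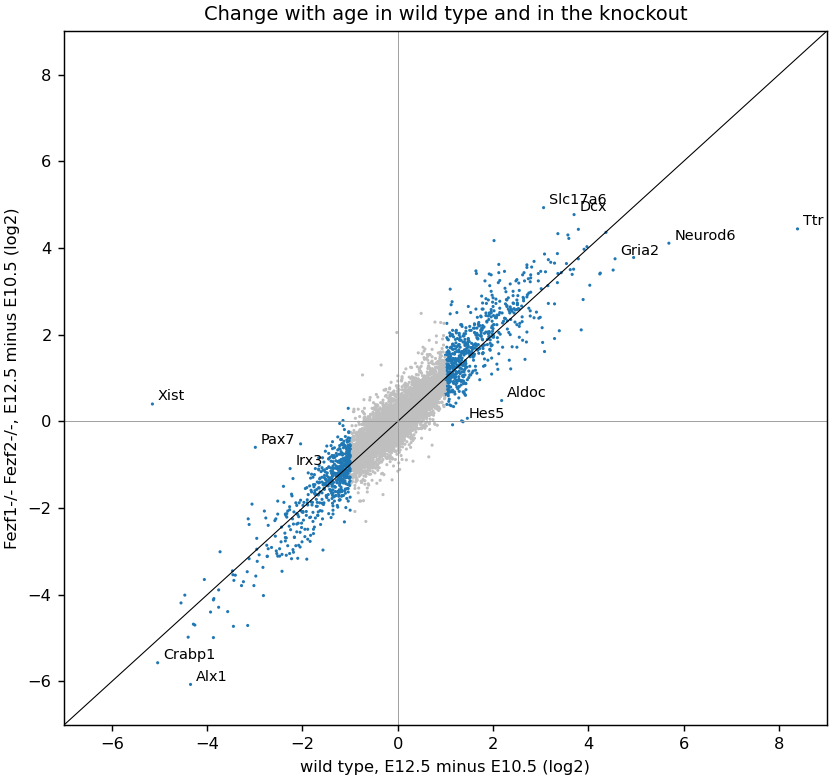
Difference between E12.5 and E10.5 (log2) in wild type (horizontal) and in Fezf1-/- Fezf2-/- forebrain (vertical) for the 7843 genes, with blue for genes at least 2-fold apart in wild type. Most genes lie along the line of equality, and Xist (-5.15 and 0.40), Hes5 (1.37 and -0.01) and Ttr (8.39 and 4.44) lie away from it.

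At the limits of the rule, Acvr1b lay just inside and Ctif just outside 2-fold higher, Hspa9 just inside and Asf1b just outside 2-fold lower. Spon1 was just over the signal minimum of 100 and Lonrf3 just under it.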

How the data were processed

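The authors deposited 1 table of linear signal intensity for 45101 probe sets on 6 arrays, computed with MAS5 per the submitters' processing notes. The columns were not brought to a common level (trimmed means 74.3 to 162), and no detection calls were used. The platform annotation gave the gene names: 34958 had 1 symbol, 932 several and 9211 none listed. Of the first, 34754 matched the gene table by Entrez ID. All 6 arrays were quantile-normalized with limma 3.58.1 in R 4.3.3, and log2(signal + 6.50) was taken, 6.50 being the lower quartile of the deposited values. A gene stood at its brightest probe set over the 6 arrays. The limma fit (lmFit, eBayes with a trend) had 2 residual degrees of freedom. On simulated data with 200 changed genes among 8468 it recovered 68.7%, 92.5% and 98.5% of those changed by 1, 2 and 3 on the log2 scale. It called 7 unchanged genes. The simulation had independent normal noise, no genotype effect and no difference in level between arrays, whereas the real fit called 4960 genes. These figures therefore describe the simulated setting and not the error rate in these data. The number of arrays limits the precision.

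Named genes were members of 40 lists, the 25 genes that rose most and the 25 that fell most (no clone names, second probe set in the same direction where over the minimum), and the 10 of highest signal at each age that were 2-fold apart. The members and lists were chosen with earlier results of these data known. Alternatives were other scalings, pseudocounts, signal minimums, folds, probe set rules and fits, and leaving out each array. List genes without a matched symbol were not analysed here.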

Additional observations from a re-analysis of the deposited data

Results flagged for a closer look

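For 2 named genes the sign of the change between E10.5 and E12.5 differed between wild type and knockout, though Hes5 was almost flat in the knockout. Neither difference was tested, since there is 1 array per genotype and age. Hes5 changed by 1.37 on the log2 scale in wild type and by -0.01 in the knockout. Xist changed by -5.15 in wild type and by 0.40 in the knockout, where its signal was 11.7 and 17.6.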

How the results depend on the processing

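No paired analysis was possible because each group has 1 array and the labels give no replicate numbers. Of 613 genes higher and 563 lower, the counts became 3359 and 74 in the values as deposited, 371 and 347 with all probe sets of a gene averaged, 1280 and 1692 with no signal minimum, 1230 and 1542 at 1.5-fold, 281 and 192 at 3-fold, and 1122 and 884 over probe sets. With a signal minimum of 200, 323 were lower. The age fit gave 7192 higher and 326 lower genes in the values as deposited and 1309 higher with probe sets averaged. Leaving out each array gave 1433 to 2190 higher and 2051 to 3014 lower genes. List medians, taken relative to all genes, changed sign as follows. In the values as deposited they were 0.69 for caudal forebrain and midbrain, 0.35 for hypothalamus, 0.02 for eye, 0.37 for placode, 0.11 for pericytes, 0.05 for macrophages and -0.24 for the respiratory chain. Under trimmed-mean scaling they were 0.18 for caudal forebrain and midbrain, 0.13 for macrophages and -0.21 for the respiratory chain. With probe sets averaged they were 0.08 for Wnt, 1.37 for placode and -3.58 for sex-linked genes. With a signal minimum of 200 they were 0.11 for Wnt, 0.19 for caudal forebrain and midbrain, 0.03 for hypothalamus, 0.12 for eye, 0.74 for placode, -2.14 for sex-linked genes and 0.06 for sterol synthesis. Of 245 named genes, 5 changed direction: Orc1 (0.11), Plvap (0.05) and Rest (0.95) in the values as deposited, and Nr4a2 (-0.11) and Syp (-0.02) with probe sets averaged. The cause was not tested. Dim genes, such as those under 100 at E10.5, have the least certain sizes.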

Other observations

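The groups in this section were chosen after their values were seen. Retinoid genes were lower: of 9 over the signal minimum in wild type, 7 were 2-fold lower at E12.5 and none higher (median -2.14). Crabp1, which binds retinoic acid in the cytoplasm, had a signal of 3397 at E10.5 and of 97 at E12.5, after 945 at E9.5. Its relative Crabp2 had 3558 and 800, after 3206. The retinaldehyde dehydrogenase genes Aldh1a1 and Aldh1a3 were at 211 and 3.3 and at 225 and 19.6. Heat shock genes were lower for 4 of 12, with the inducible gene Hspa1b at 519 and 24.9 and the constitutive gene Hspa8 at 8932 and 6814. Handling of the tissue was not recorded in the labels.

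Of 16 imprinted genes over the minimum, 4 were 2-fold higher, 1 was lower and 11 were under 2-fold apart. The noncoding RNA Rian was at 135 and 724, the neuronal genes Ndn and Nnat at 1757 and 4439 and at 2722 and 7589. The lower gene was the amino acid transporter gene Slc38a4 (253 and 20.3). The growth genes Igf2 (1427 and 967) and Mest (4054 and 2738) were under 2-fold apart. Of 10 tubulin genes over the minimum, 4 were 2-fold higher and 2 were lower. Tubb2b was at 1841 and 6150, whereas Tubb6 was at 249 and 94.2. Of 10 Sox genes over the minimum, 2 were 2-fold higher, Sox6 (180 and 408) and Sox11 (3641 and 7527), and none was lower.

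Of 4 transcripts named as hosts of microRNAs over the minimum, 1 of them in both arrays, 3 were 2-fold higher. These were Mir124a-1hg at 17.3 and 238, Mir99ahg at 43.9 and 383 and Mir9-3hg at 122 and 396. Mirg, at 105 and 97.2, was under 2-fold apart. The array does not measure mature microRNAs. The hairpin of miR-9 lies within the annotated Mir9-3hg in RefSeq (GRCm38.p6), so its mature sequence is shown, with the seed (bases 2 to 8) in capitals.
mmu-miR-9-5p: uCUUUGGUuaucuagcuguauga
The hairpins of miR-99a and let-7c lie outside the interval annotated for Mir99ahg in that table, so none of their sequences is given.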
